A study of Mus musculus with 21 samples.

Results

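Testes of mice on postnatal day 2 (pnd2) were compared with fetal testes on gestation day 18 (gd18), the step across birth in a series on the developing mouse testis. The comparison rests on 6 of the 21 arrays in the series, 3 arrays of each stage, chosen by their stage labels. Both groups were wild-type CD-1 males, an outbred stock, with no treatment and no engineered allele, at Theiler stage 26 (gd18) and 27 (pnd2). Each array held RNA of 1 unpooled sample, the pair of testes of 1 animal, and each animal came from a different dam, per the series' design text. Transcript levels were read as intensities per probe set on single-channel oligonucleotide arrays, in arbitrary units. All 45101 probe sets were considered, of which 34945 name 1 gene, and 14338 genes were tested after a filter on dim probe sets. Arrays of gd11 (5 pools of 2), gd12 (3 pools of 5), gd14 and gd16 (3 each) gave the spread between arrays and the course before gd18.

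A whole testis holds germ cells inside cords of Sertoli cells, the somatic cells that nurse them, with peritubular myoid cells around the cords. Between the cords lie fetal Leydig cells, which make androgen, together with stroma, vessels and macrophages. Late in fetal life the male germ cells (gonocytes) rest without dividing and lay down DNA methylation, guided in part by piRNAs, small RNAs that silence transposons. Soon after birth they resume division, move to the cord wall and become spermatogonia, while Sertoli cells keep multiplying. At birth the testis also passes from the oxygen supply, temperature and nutrients of the placenta and uterus to those of the newborn. Age, birth and these changes come together in this design and cannot be told apart. Whole organs were measured, so fewer cells of a type and less RNA per cell cannot be told apart either.

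The 6 arrays were close in quality. Correlations between log2 values ranged from 0.967 to 0.972 within gd18, from 0.976 to 0.979 within pnd2 and from 0.960 to 0.969 between the stages. With 3 arrays a stage, their number limits how precise any value is. No batch is named in the labels. Dim probe sets were lower on pnd2 arrays, whose 40th percentile was 59.6 to 65.5 against 70.2 to 83.2 at gd18. For the beta-actin control probe sets, whose 3' over 5' ratio is a sign of RNA quality, that ratio was 1.27 to 1.31 at gd18 and 1.33 to 1.42 at pnd2, and its part in any result was not tested. Defining genes of testis cell types were well above background at both stages. Germ cells were seen through Ddx4, a helicase, with 1717 ± 597 at gd18 and 1760.4 ± 328 at pnd2 (mean ± SD, n = 3), and Dazl, an RNA-binding protein, with 4619 ± 823 at gd18 and 4972 ± 1034 at pnd2. Sertoli cells were seen through Amh, anti-Müllerian hormone, with 2353 ± 828 at gd18 and 2389 ± 471 at pnd2, and Dhh, a hedgehog ligand, with 4452 ± 734 at gd18 and 5671 ± 460.5 at pnd2. None of these 4 genes was called, with adjusted p from 0.307 to 0.944.

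By limma, 1118 of 14338 genes (7.80%) differed at an adjusted p below 0.05, which is what "called" means here. Of these, 364 (2.54% of the genes tested) were higher at pnd2 and 754 (5.26%) were lower. A difference of at least 2-fold was found for 349 called genes, 44 higher and 305 lower. The ranges of the 2 stages did not overlap for 4801 genes (33.5%), among them 1107 of the 1118 called. The lean towards falls was strongest among dim genes. Of 2554 genes whose higher stage mean lay between 71.6 and 200, 9 rose and 154 fell, with a median log2 difference of -0.31. Of 5075 genes with a mean of 1000 or more, 238 rose and 255 fell, with a median of 0.03. The value 71.6 marks the 40th percentile over the testis arrays, and a stage mean below it is called near background. When each array was centred on its median, 525 genes rose and 569 fell, so 48.0% of the calls were rises against 32.6%. With quantile normalization the share was 34.8%. The balance of rises and falls thus moved with centring. Each array mattered for the count, which fell to 437 without gd18 replicate 6, 564 without pnd2 replicate 2, 589 without pnd2 replicate 1, 604 without pnd2 replicate 3 and 673 without gd18 replicate 5. The differences given below are log2 values of pnd2 minus gd18 ± SE from the fit, with Benjamini-Hochberg adjusted p over all genes tested.

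**Figure D1:**
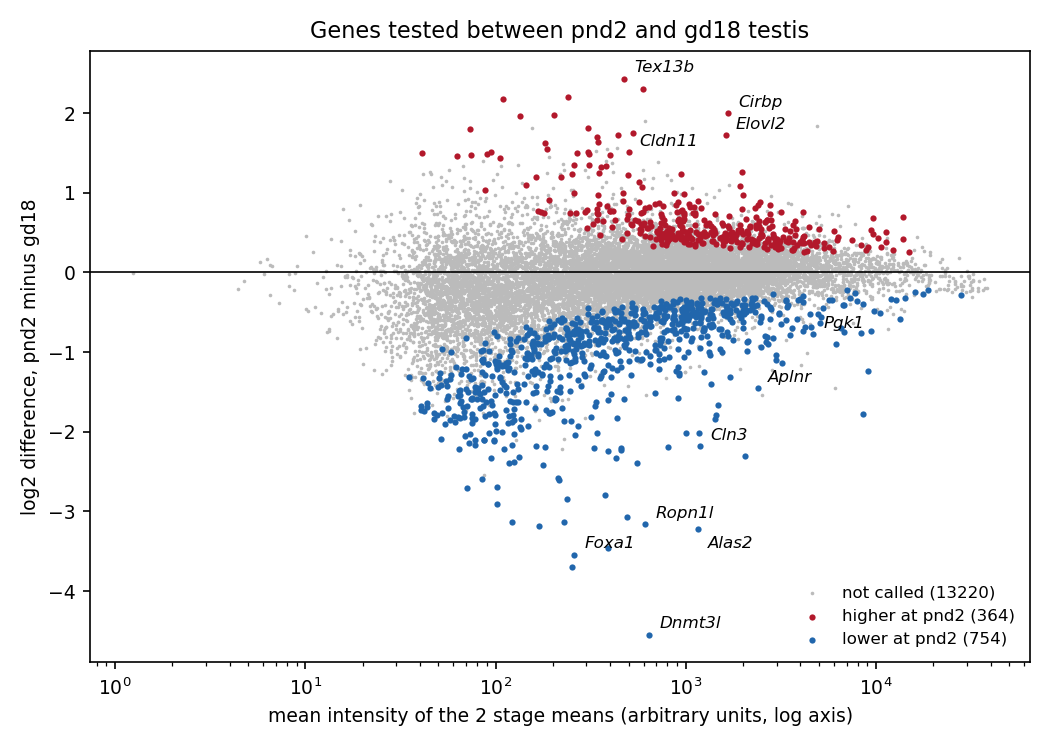
Log2 difference between pnd2 and gd18 (vertical axis) against the mean intensity of the 2 stage means (log axis) for the 14338 genes tested. Each point is a gene; 364 called higher are red, 754 called lower are blue and the rest grey, with falls outnumbering rises most clearly at low intensity.

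Of the 364 rises, 159 had all 3 pnd2 arrays above all 17 fetal arrays, and of the 754 falls, 264 had all 3 below them. Over all genes tested, 580 lay above and 585 below. Only 3 genes were near background at all 5 fetal stages and called above it at pnd2. They were Sult1e1, the estrogen sulfotransferase, Clec3b, which encodes tetranectin, and C920006O11Rik, an uncharacterised gene, at pnd2 means of 127, 147 and 102. Clec3b was not called without pnd2 replicate 1 or 3, or gd18 replicate 4 or 5 (adjusted p = 0.135 to 0.155), nor C920006O11Rik without pnd2 replicate 2, or gd18 replicate 5 or 6 (adjusted p = 0.0547 to 0.0744), and the stages overlapped for Clec3b. Under a looser rule that looked at gd18 alone, 178 called genes were above background at gd18 and below it at pnd2. This count cannot be set against the 3, because the rules differ and dim probe sets were lower on pnd2 arrays.

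4 genes, the markers chosen for this comparison, are described first. Dnmt3l, the cofactor of the enzymes that methylate DNA in fetal male germ cells, had intensities of 659, 989 and 2122 at gd18 and 7.28, 43.0 and 37.1 at pnd2. Every pnd2 array was near background and the groups lay far apart. Its log2 difference was -4.55 ± 0.34 (SE; adjusted p = 4.72e-07), the largest fall of all called genes, and its stage mean had peaked at 2986 at gd16. Ropn1l, which encodes a ropporin-like protein of the sperm tail, read 1004, 876 and 1489.7 at gd18 and 91.8, 134 and 86.6 at pnd2. It stood highest on gd18 replicate 6 and was lower on every pnd2 array (-3.16 ± 0.26, adjusted p = 1.97e-06). Its stage mean climbed from 125 at gd14 to 738 at gd16 and 1123 at gd18 before it dropped to 104. A dimmer probe set of Ropn1l fell by less (-1.55, adjusted p = 0.0188). Cirbp, a cold-inducible RNA-binding protein, read 759, 645 and 571 at gd18 and 2719, 2829.9 and 2509 at pnd2. The pnd2 arrays were close to each other and lay above all 17 fetal arrays, with a mean 4.08 times that of gd18 (2.00 ± 0.20, adjusted p = 1.87e-05). Cldn11, the claudin of Sertoli cell tight junctions, read 226, 303 and 226 at gd18 and 671, 745 and 851 at pnd2. It too stood above all fetal arrays (1.51 ± 0.30, adjusted p = 0.0049). All 4 calls held in each of the 16 alternative settings.

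**Figure D2:**
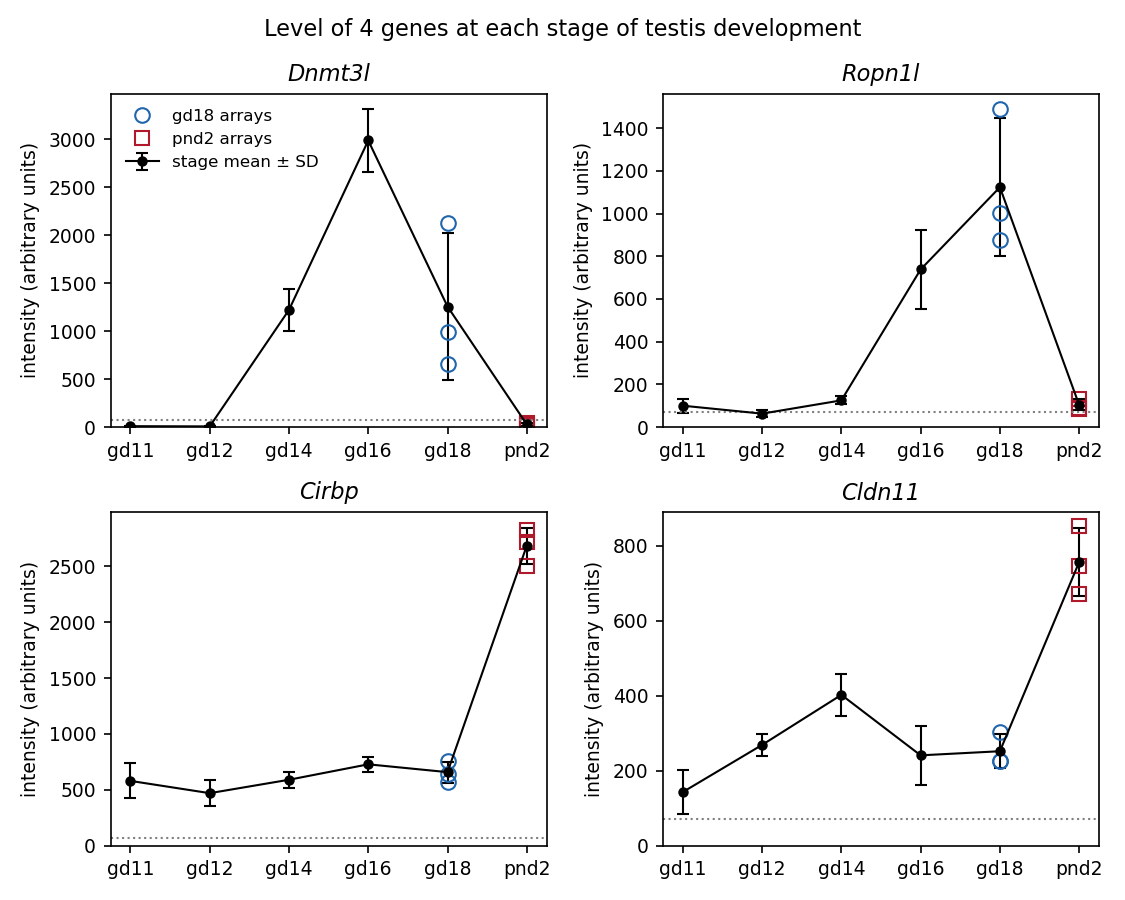
Intensity of Dnmt3l, Ropn1l, Cirbp and Cldn11 in arbitrary units (vertical axis) at each stage, as the stage mean ± SD (black, n = 5 at gd11 and 3 elsewhere) with the single gd18 (blue) and pnd2 (red) arrays and the near-background level (dotted). Dnmt3l and Ropn1l are high only between gd14 or gd16 and gd18, whereas Cirbp and Cldn11 are highest at pnd2.

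Among fetal germ cell genes, the methylation cofactor Dnmt3l, the piRNA helicase Tdrd9 and 5 genes of the pluripotent state fell, while Ddx4 and Dazl were not called. In the list for piRNAs and DNA methylation, 2 of 24 tested genes fell (8.3% against 5.26% of all genes) and 0 rose by limma (2 were higher at an unadjusted p below 0.05). The median log2 difference was -0.11 (-0.30 without gd18 replicate 5 and 0.06 without gd18 replicate 6 at the extremes) against -0.06 over all genes (without gd18 replicate 6, 2 rose). Dnmt3l was one of the falls. The other was Tdrd9, a helicase of the piRNA pathway, with 1224, 1130.2 and 2537 at gd18 and 258, 461 and 387 at pnd2 and no overlap (-2.02 ± 0.29, adjusted p = 0.000503). Piwil2, a Piwi protein that binds piRNAs, read 1564, 1640.3 and 2962 at gd18 and 959.9, 1123 and 1286 at pnd2, and Piwil4, its nuclear relative, read 110.3, 194 and 378 at gd18 and 98, 129 and 51.4 at pnd2 (adjusted p = 0.079 and 0.151). Piwil2 was lower on every pnd2 array, whereas Piwil4 overlapped. For the partner enzyme Dnmt3a the probe sets disagreed: the brightest was not called (-0.07 ± 0.20, adjusted p = 0.872), 2 others fell (-1.33, adjusted p = 0.0045, and -1.08, adjusted p = 0.00197) and 2 were lower without a call (-0.51 and -0.56, adjusted p = 0.193 and 0.213). Dnmt3b was not called (0.50 ± 0.16, adjusted p = 0.0586). Kdm1b, a histone demethylase, read 1509.6, 1612 and 3697 at gd18 and 551, 615 and 529 at pnd2. Its log2 difference was -1.84 ± 0.24, adjusted p = 0.000205, after stage means of 523 at gd12 and 3793 at gd16, the peak.

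Of 25 pluripotency and primordial germ cell genes, 5 fell (20.0% against 5.26% of all genes) and 0 rose by limma (1 at an unadjusted p below 0.05). A log2 difference below 0 was found for 21, and the median was -0.46. Utf1, a chromatin factor of pluripotent cells, read 588, 637 and 1092 at gd18 and 106, 193 and 137 at pnd2 (-2.22 ± 0.28, adjusted p = 0.000176). Dppa4, a nuclear protein of pluripotent cells, read 1415, 1658 and 2629 at gd18 and 322, 582 and 439.7 at pnd2 (-2.02 ± 0.42, adjusted p = 0.00752). Both had peaked at gd14, at 3657 and 7834, and were lower on every pnd2 array than on any gd18 array. Lefty2, a Nodal antagonist (-1.63 ± 0.32, adjusted p = 0.00483), Prdm1, a repressor that specifies germ cells (-1.04 ± 0.24, adjusted p = 0.014), and Dppa3, a protector of DNA methylation (-1.88 ± 0.45, adjusted p = 0.0157), fell as well. The falls numbered 3 without gd18 replicate 6. Prdm1 was not called without pnd2 replicate 1 or gd18 replicate 6 (adjusted p = 0.0759 and 0.0615), and Dppa3 was not called without pnd2 replicate 2, or gd18 replicate 4 or 6 (adjusted p = 0.0535 to 0.0633).

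Several spermatogonial genes rose. Of 30 tested, 5 rose and 2 fell, with a median of 0.29 (0.17 without gd18 replicate 5 and 0.44 without pnd2 replicate 1 at the extremes), against 2.54% higher over all genes. Ret, the receptor for GDNF, the Sertoli signal that maintains spermatogonial stem cells, read 214, 117 and 116 at gd18 and 335, 635 and 426 at pnd2. Its co-receptor Gfra1 read 126, 170.2 and 155 at gd18 and 370.5, 468 and 563 at pnd2. Neither overlapped between stages (1.51 ± 0.35, adjusted p = 0.0142, and 1.49 ± 0.44, adjusted p = 0.0455). A dimmer probe set of Ret rose too (1.64, adjusted p = 0.0308), and of 2 others of Gfra1 1 rose (2.55, adjusted p = 0.0033) and 1 was not called (1.28, adjusted p = 0.111). Bcl6b, a repressor that acts downstream of GDNF, read 166, 194 and 134 at gd18 and 355, 345 and 348 at pnd2 (1.0 ± 0.24, adjusted p = 0.0181). Etv4, an ETS factor counted with the FGF genes, read 18.9, 11.4 and 47.0 at gd18 and 162, 137 and 282 at pnd2 (2.18 ± 0.47, adjusted p = 0.00931), and its relative Etv5 was not called (0.60 ± 0.23, adjusted p = 0.116). The ligand Gdnf itself was not called (-0.27 ± 0.50, adjusted p = 0.807). Egr2, a zinc finger factor (1.64 ± 0.38, adjusted p = 0.0141), and Pou3f1, a POU factor (1.96 ± 0.57, adjusted p = 0.0413), rose as well. Zbtb16, which marks undifferentiated spermatogonia, read 370.4, 157 and 225 at gd18 and 677, 1086 and 1160.2 at pnd2 and just missed the call (1.91 ± 0.59, adjusted p = 0.0518), as did Stra8, the retinoic acid target of meiotic entry, with 163, 150.3 and 132 at gd18 and 465, 249 and 865 at pnd2 (1.52 ± 0.48, adjusted p = 0.0585). The 2 falls were Upp1, uridine phosphorylase (-1.19 ± 0.26, adjusted p = 0.00968), and Rarg, a retinoic acid receptor (-0.80 ± 0.21, adjusted p = 0.0266).

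Most of these calls depended on single arrays. The rises numbered 1 without pnd2 replicate 2 or gd18 replicate 6 and 2 without pnd2 replicate 1 or 3, or gd18 replicate 4 or 5. Ret was not called without pnd2 replicate 2, or gd18 replicate 5 or 6 (adjusted p = 0.0555 to 0.0727). Egr2 was not called without pnd2 replicate 2 or gd18 replicate 4 (adjusted p = 0.0717 and 0.0568). Bcl6b was not called without pnd2 replicate 1, 2 or 3, or gd18 replicate 6 (adjusted p = 0.0527 to 0.0865). Gfra1 was not called without any 1 of the 6 arrays (adjusted p = 0.0772 to 0.144), nor Pou3f1 without any 1 of the 6 arrays (adjusted p = 0.0735 to 0.137). Rarg was not called without pnd2 replicate 1 or 2, or gd18 replicate 4 or 6 (adjusted p = 0.0701 to 0.124). Etv4 kept its call in each of those fits. With only the 12 arrays of single animals in the fit, 13 spermatogonial genes rose. On gd18 the fetal germ cell genes stood highest on replicate 6, where the piRNA list summed to 43418 against 23649 and 26467 on the other two, a difference whose cause was not tested. Without that array 3 pluripotency genes fell, and Dnmt3l, Tdrd9, Utf1, Dppa4 and Kdm1b were still called.

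**Figure D3:**
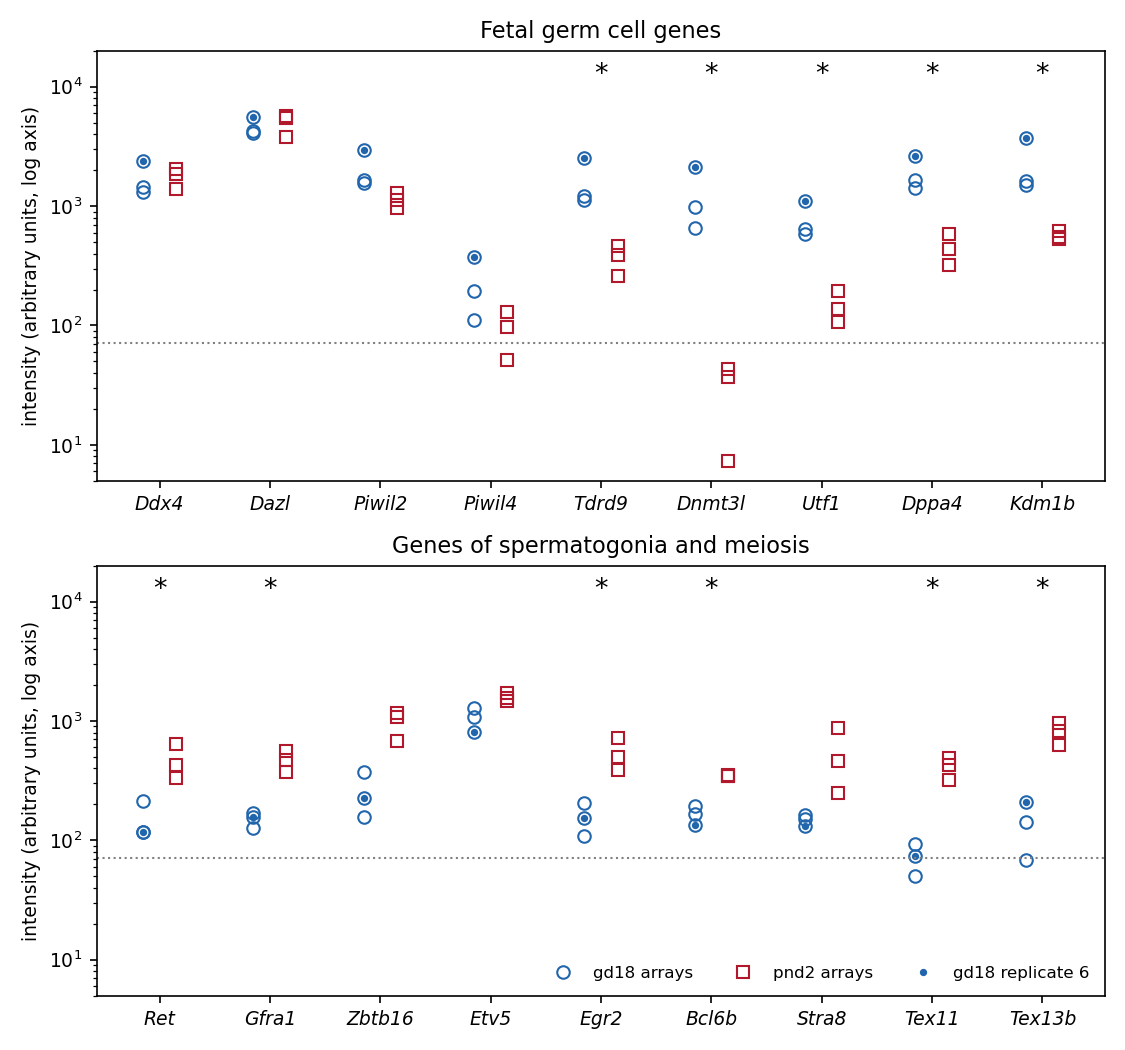
Intensity on each array (log axis, arbitrary units) of 9 fetal germ cell genes (top) and 9 genes of spermatogonia and meiosis (bottom) at gd18 (blue circles, replicate 6 filled) and pnd2 (red squares), with asterisks for called genes and the near-background level dotted. Dnmt3l is below that level on all 3 pnd2 arrays, Ddx4 and Dazl overlap, and Ret, Gfra1, Tex11 and Tex13b lie higher on every pnd2 array.

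Of 22 meiosis genes, 1 rose (4.5%) and 1 fell (4.5%), against 2.54% and 5.26% of all genes. The rise was Tex11, an X-linked gene needed for chromosome pairing, with 50, 93.2 and 73.5 at gd18 and 318, 428 and 489 at pnd2 (2.20 ± 0.40, adjusted p = 0.00313). Its stage mean had been 426 at gd14 and dipped to 72.2 at gd18. Tex13b, another X-linked testis gene and the largest rise of all called genes, followed the same course, with 586 ± 157 at gd14, 139.6 ± 70.8 at gd18 and 805 ± 165 at pnd2 (2.44 ± 0.45, adjusted p = 0.00323). Spo11, which cuts DNA to start recombination, fell (-1.24 ± 0.36, adjusted p = 0.0374), and was not called without pnd2 replicate 1 or 3, or gd18 replicate 5 or 6 (adjusted p = 0.0502 to 0.208). Hells, a chromatin remodeler of germ cells, rose by its brightest probe set (0.76 ± 0.17, adjusted p = 0.0119), but its 2 others were not called (0.29 and -0.08, adjusted p = 0.165 and 0.894), nor was their mean (adjusted p = 0.127). Ehmt2, the G9a methyltransferase of histone H3, fell, with 6107, 5264 and 7054 at gd18 and 3934, 4053 and 4400.0 at pnd2 (-0.56 ± 0.10, adjusted p = 0.00269).

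Calls among genes of the sperm tail and motile cilium were all falls, at ages with no sperm. Of 19 tested, 5 fell, or 26.3% against 5.26% of all genes. By limma 0 rose (0 at an unadjusted p below 0.05). All 19 had a log2 difference below 0, with a median of -0.74. Beside Ropn1l the falls were Ldhc, the lactate dehydrogenase of sperm (-1.63 ± 0.35, adjusted p = 0.00871), Dnaic1, a dynein chain (-1.69 ± 0.42, adjusted p = 0.0203), Tekt1, a tektin (-1.21 ± 0.30, adjusted p = 0.0208), and Tsga10 (-0.76 ± 0.20, adjusted p = 0.0249). The median of dim genes in general was also below 0, at -0.31 for stage means of 71.6 to 200. The falls numbered 1 without gd18 replicate 6, 2 without pnd2 replicate 2 and 3 without pnd2 replicate 3 or gd18 replicate 5. Dnaic1 was not called without pnd2 replicate 2 or 3, or gd18 replicate 5 or 6 (adjusted p = 0.0518 to 0.0729), Tekt1 without pnd2 replicate 1 or 2, or gd18 replicate 6 (adjusted p = 0.0638 to 0.105), Tsga10 without pnd2 replicate 2 or 3, or gd18 replicate 5 or 6 (adjusted p = 0.0646 to 0.103) and Ldhc without gd18 replicate 6 (adjusted p = 0.0538). Of the 32 list genes on the array, 13 did not pass the filter on dim values. Related genes chosen after their values were seen also fell: Deup1, which amplifies centrioles in ciliated cells, read 108, 121 and 259 at gd18 and 3.80, 11.9 and 4.03 at pnd2 (-2.60 ± 0.40, adjusted p = 0.000866), and Cfap57, an axoneme protein, read 100.5, 168 and 259 at gd18 and 17.8, 34.0 and 13.1 at pnd2 (-2.12 ± 0.35, adjusted p = 0.00149). Both had stage means near background at gd14 and above it at gd16. Foxj1, the master regulator of motile cilia, stayed dim at 54.7 ± 8.38 at gd18 and 64.6 ± 27.6 at pnd2.

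Of 32 Sertoli cell genes tested, 2 rose (6.2%) and 2 fell (6.2%), against 2.54% and 5.26% of all genes. The median was 0.07 (0.02 without gd18 replicate 6 and 0.18 without gd18 replicate 4 at the extremes). Fshr, the receptor for follicle-stimulating hormone, read 400.2, 339 and 309 at gd18 and 747, 896 and 733 at pnd2. All pnd2 arrays exceeded all 17 fetal arrays (1.13 ± 0.25, adjusted p = 0.0116), though it was not called without pnd2 replicate 2 or gd18 replicate 6 (adjusted p = 0.0543 and 0.0563). Aard also rose (0.70 ± 0.20, adjusted p = 0.0343), and was not called without pnd2 replicate 1, 2 or 3, or gd18 replicate 5 or 6 (adjusted p = 0.071 to 0.147). Sox9, the transcription factor of Sertoli fate, read 1166, 1191 and 770.1 at gd18 and 1079, 985 and 1159 at pnd2 with overlapping groups (0.07 ± 0.28, adjusted p = 0.918). Wt1 (0.61 ± 0.37, adjusted p = 0.346) and Dmrt1 (0.86 ± 0.34, adjusted p = 0.123), which keep Sertoli cells male, stood higher on every pnd2 array without a call. Ptgds, a prostaglandin D synthase, read 14384, 13355 and 10428 at gd18 and 4616, 6525 and 5040.3 at pnd2 (-1.24 ± 0.36, adjusted p = 0.0437), and Krt18, a keratin of immature Sertoli cells and of ducts, read 1424, 1644 and 2264 at gd18 and 767, 769 and 629 at pnd2 (-1.25 ± 0.36, adjusted p = 0.0404). By these probe sets, Ptgds was not called without any 1 of the 6 arrays (adjusted p = 0.0686 to 0.136), nor Krt18 without any 1 of the 6 arrays (adjusted p = 0.0555 to 0.164). A dimmer probe set of Ptgds fell as well in the main fit (-1.24, adjusted p = 0.000481).

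Of 32 junction genes, 1 rose (3.1%) and 2 fell (6.2%), near the 2.54% and 5.26% of all genes. Cldn11 was the rise, and the falls were Cldn6 and Ctnnb1, the adhesion protein beta-catenin (-0.22 ± 0.07, adjusted p = 0.0434), not called without any 1 of the 6 arrays (adjusted p = 0.0518 to 0.161). Ocln, occludin of tight junctions, read 551, 651 and 674 at gd18 and 1357, 1169 and 1236 at pnd2, above all fetal arrays but not called (0.98 ± 0.39, adjusted p = 0.135). Cldn6, an embryonic claudin, read 54.9, 80.2 and 98.9 at gd18 and 10.6, 4.09 and 13.9 at pnd2, near background at pnd2 (-1.64 ± 0.46, adjusted p = 0.0349), and was not called without pnd2 replicate 1, 2 or 3, or gd18 replicate 5 or 6 (adjusted p = 0.0697 to 0.129). Tjp1, the scaffold ZO-1 (-0.10 ± 0.10, adjusted p = 0.569), and Gja1, connexin 43 (0.13 ± 0.13, adjusted p = 0.59), gave no call. Of 32 collagen genes, 2 rose (6.2%) and 1 fell (3.1%), against 2.54% and 5.26% of all genes. The basement membrane chains Col4a3 (247, 108 and 149 at gd18 and 358, 424 and 566 at pnd2) and Col4a4 (1998, 1497 and 1523 at gd18 and 2723, 2852 and 3237 at pnd2) rose (1.35 ± 0.36, adjusted p = 0.0283, and 0.81 ± 0.24, adjusted p = 0.0403). A further probe set of Col4a3 (1.27, adjusted p = 0.029) and 2 of Col4a4 (1.10 and 1.06, adjusted p = 0.0353 and 0.0126) rose as well. Their network partner Col4a5 (-0.00 ± 0.19, adjusted p = 0.995) and the common chain Col4a1 (0.01 ± 0.15, adjusted p = 0.974) were not called. Col4a3 was not called without pnd2 replicate 2 or 3, or gd18 replicate 5 or 6 (adjusted p = 0.0728 to 0.115), and Col4a4 without pnd2 replicate 1, 2 or 3, or gd18 replicate 5 or 6 (adjusted p = 0.0811 to 0.138).

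In steroid synthesis, the androgen enzyme Cyp17a1 fell. Of 18 Leydig genes tested, 1 rose (5.6%) and 3 fell (16.7%), against 2.54% and 5.26% of all genes. The median was -0.25 (-0.45 without gd18 replicate 6 and -0.08 without gd18 replicate 5 at the extremes). The falls numbered 0 without pnd2 replicate 2 and 1 without pnd2 replicate 1, or gd18 replicate 4 or 5. Cyp17a1, which commits steroids to androgens, read 12026, 18318 and 8585 at gd18 and 3882, 1914 and 6216 at pnd2. The groups did not overlap (-1.78 ± 0.38, adjusted p = 0.00931), but the call was lost without pnd2 replicate 2 (adjusted p = 0.0522). Its stage mean had been 26707 at gd16. Cyp11a1, which cleaves the cholesterol side chain, read 4879, 6335 and 5484 at gd18 and 2751, 2343 and 2288 at pnd2, all pnd2 arrays lower, but was not called (-1.17 ± 0.52, adjusted p = 0.182). Star, the cholesterol carrier of mitochondria, overlapped (-0.55 ± 0.60, adjusted p = 0.636). Hsd3b1 (-0.52 ± 0.37, adjusted p = 0.432) and Hsd17b3, the last step to testosterone (0.12 ± 0.28, adjusted p = 0.848), were not called. Fdx1, which passes electrons to Cyp11a1 (-0.69 ± 0.19, adjusted p = 0.0312), and Gramd1b, a cholesterol transporter (-0.65 ± 0.19, adjusted p = 0.0437), fell; Fdx1 was not called without pnd2 replicate 1 or 2, or gd18 replicate 4 or 5 (adjusted p = 0.0638 to 0.145), nor Gramd1b without pnd2 replicate 1 or 2, or gd18 replicate 4, 5 or 6 (adjusted p = 0.0631 to 0.223). Outside the list, Alas1, which starts heme synthesis, chosen after its values were seen, read 4175, 4632 and 3332 at gd18 and 1705, 1717 and 2219 at pnd2 (-1.09 ± 0.17, adjusted p = 0.00087), and Ephx1, an epoxide hydrolase chosen likewise, read 2266, 2986 and 2102 at gd18 and 1013, 744 and 1175 at pnd2 (-1.31 ± 0.17, adjusted p = 0.0002). The list summed to 60317, 78474 and 50636 on gd18 replicates 4, 5 and 6 and to 37446 to 44013 at pnd2. Sult1e1, which inactivates estrogen, was the rise, with 18.6, 34.5 and 6.74 at gd18 and 123, 75.3 and 182 at pnd2 (1.80 ± 0.38, adjusted p = 0.00827).

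Among temperature genes Cirbp rose, and 3 heat shock genes fell. Of 10 cold-inducible genes and splicing partners, 3 rose, 1 fell and 6 were not called, with a median of 0.02 (0.01 without pnd2 replicate 2 and 0.04 without gd18 replicate 5 at the extremes). Beside Cirbp, the splicing factors Srsf2 (9779, 10380.4 and 9304 at gd18 and 12467, 12759.9 and 13114 at pnd2; 0.38 ± 0.08, adjusted p = 0.00877) and Srsf5 (0.53 ± 0.12, adjusted p = 0.011) rose by smaller amounts, and Clk1, a kinase of such factors, fell (-0.51 ± 0.12, adjusted p = 0.0177). Of 21 heat shock genes, 3 fell (14.3% against 5.26% of all genes) and 0 rose by limma (0 at an unadjusted p below 0.05). Hsph1, a partner of Hsp70, read 1620.1, 1910.2 and 1821 at gd18 and 929, 878 and 825 at pnd2. The pnd2 arrays lay below every fetal array, at a level 2.03-fold lower (-1.0 ± 0.12, adjusted p = 0.000146), and its other probe set gave -0.86 (adjusted p = 0.0036). Chordc1, a helper of Hsp90, fell from 2244 to 1577 (-0.51 ± 0.11, adjusted p = 0.00959), and Hspa5, the chaperone of the endoplasmic reticulum, fell slightly (-0.35 ± 0.10, adjusted p = 0.0332). The main Hsp70 and Hsp90 genes were not called: Hspa1b (-0.50 ± 0.25, adjusted p = 0.25), Hspa8 (-0.05 ± 0.07, adjusted p = 0.743) and Hsp90aa1 (-0.16 ± 0.10, adjusted p = 0.384). Hspa5 was not called without pnd2 replicate 1, 2 or 3, or gd18 replicate 4 or 6 (adjusted p = 0.0836 to 0.137), Chordc1 without pnd2 replicate 2 (adjusted p = 0.0536), Clk1 without pnd2 replicate 1, or gd18 replicate 5 or 6 (adjusted p = 0.0528 to 0.0814) and Srsf5 without pnd2 replicate 2 or gd18 replicate 6 (adjusted p = 0.0581 and 0.0591).

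The promoters of Cirbp and Hsph1 are shown because these genes led the cold and heat lists. Windows run from 250 bases before to 50 after the start site, 5′ to 3′ on the gene's strand, from RefSeq in build GRCm38.p6. Each gene has 2 windows, of which the first listed is printed. Cirbp lies at chr10:80167589-80167888 (plus strand), and capitals mark the letters TCCCCGCC, a mild-cold response element, sought on both strands. Hsph1 lies at chr5:149636287-149636586 (minus strand), and capitals mark GAANNTTC or TTCNNGAA, the paired units of a heat shock element, where overlapping matches run on.
Cirbp: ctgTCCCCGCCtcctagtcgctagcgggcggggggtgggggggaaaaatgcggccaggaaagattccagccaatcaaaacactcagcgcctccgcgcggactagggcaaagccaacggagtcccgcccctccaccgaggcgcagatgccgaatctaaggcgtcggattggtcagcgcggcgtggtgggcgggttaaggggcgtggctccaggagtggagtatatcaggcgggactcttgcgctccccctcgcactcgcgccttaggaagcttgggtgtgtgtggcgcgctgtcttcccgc
Hsph1: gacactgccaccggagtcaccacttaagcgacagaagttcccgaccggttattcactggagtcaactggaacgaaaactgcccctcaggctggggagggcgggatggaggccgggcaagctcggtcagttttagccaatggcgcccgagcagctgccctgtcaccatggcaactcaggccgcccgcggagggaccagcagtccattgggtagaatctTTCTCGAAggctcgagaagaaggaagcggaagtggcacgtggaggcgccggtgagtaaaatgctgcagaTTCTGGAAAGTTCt
Of 11518 genes tested that have such a window, 11.2% hold the cold letters and 14.1% hold the heat letters in at least 1 window. Cirbp holds 1 match and Hsph1 holds 2 stretches of matches. A match is a description of the letters, not a binding site.

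The list with the largest share of falls was that of glycolysis and the hypoxia response. In low oxygen, HIF factors raise glucose transporters, glycolytic enzymes and growth factors for vessels. Of 32 tested genes, 16 fell and 0 rose by limma (1 at an unadjusted p below 0.05), 50% against 5.26% of all genes, with a median of -0.43. Their summed intensity was 90123 to 97768 at gd18 and 64473 to 70513 at pnd2, without overlap. Leaving out 1 array at a time gave 11 to 14 falls.

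Falls lay along much of the pathway. Of the glucose transporters, Slc2a1 (GLUT1) read 2039, 2381 and 2444 at gd18 and 1324, 1282 and 1159 at pnd2 (-0.85 ± 0.13, adjusted p = 0.000622), and Slc2a3 (GLUT3), rich in germ cells, read 1798, 2179.5 and 2728 at gd18 and 426, 830.5 and 669 at pnd2 (-1.79 ± 0.31, adjusted p = 0.00234). Slc2a3 dropped furthest in the list, and the stages did not overlap for either. Falls were also called for phosphofructokinase Pfkl (3445, 3054 and 3328 at gd18 and 1687, 1597 and 1828 at pnd2; -0.93 ± 0.16, adjusted p = 0.00241), aldolase Aldoa (-0.51 ± 0.11, adjusted p = 0.00908) and triose phosphate isomerase Tpi1 (8057, 8349 and 9062 at gd18 and 4715, 5274 and 5174 at pnd2; -0.75 ± 0.10, adjusted p = 0.000451). Pgk1, phosphoglycerate kinase, read 5718, 5825 and 6196 at gd18 and 3257, 3593 and 3479 at pnd2. Its arrays varied little within a stage, and the pnd2 level was below every fetal array (-0.78 ± 0.08, adjusted p = 1.84e-05). The last steps fell too, with Pkm, pyruvate kinase (-0.41 ± 0.11, adjusted p = 0.0265), and Ldha, lactate dehydrogenase, with 8069.7, 7178 and 8767 at gd18 and 3795, 4610.2 and 4493 at pnd2 (-0.89 ± 0.17, adjusted p = 0.0042). Smaller falls were called for Pfkp (-0.70 ± 0.20, adjusted p = 0.0399), Pfkfb4 (-0.44 ± 0.13, adjusted p = 0.0364) and Pgam1 (-0.26 ± 0.07, adjusted p = 0.0285). Hexokinase Hk2, the entry step, overlapped between stages (0.11 ± 0.13, adjusted p = 0.664).

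Some targets of HIF outside glycolysis fell as well. Ankrd37, an ankyrin repeat protein, read 404, 468 and 694 at gd18 and 94.1, 182 and 193 at pnd2 (-1.62 ± 0.26, adjusted p = 0.00113). Kdm3a, a histone demethylase, read 3033, 3279.9 and 4339.7 at gd18 and 1745, 2010.2 and 1869.8 at pnd2 (-0.90 ± 0.13, adjusted p = 0.000508). Vegfa, the growth factor of vessels, read 619, 786 and 987 at gd18 and 429, 379 and 273 at pnd2 (-1.10 ± 0.19, adjusted p = 0.00243). P4ha1, which hydroxylates collagen, read 1342, 1375 and 1397 at gd18 and 666, 745 and 831 at pnd2 (-0.86 ± 0.13, adjusted p = 0.000824), and Egln3, an oxygen sensor, fell as well (-0.87 ± 0.25, adjusted p = 0.0365). In none of these genes did the stages overlap. The factors themselves were not called, with Hif1a at 6019, 6695 and 5852 at gd18 and 6923, 6453 and 6196 at pnd2 (0.08 ± 0.08, adjusted p = 0.638), and Epas1 at a difference of -0.28 ± 0.27, adjusted p = 0.574. The list members Slc16a3, Egln1, Car9, Ndrg1, Ddit4, Higd1a and Ero1a were not called either. Of other targets, Bnip3, of mitophagy (-0.41 ± 0.19, adjusted p = 0.197), Adm, adrenomedullin (0.08 ± 0.43, adjusted p = 0.936), and Pdk1, which keeps pyruvate out of mitochondria (0.64 ± 0.46, adjusted p = 0.433), were not called by their brightest probe sets. Those of Pdk1 disagreed, since 1 other fell (-0.83, adjusted p = 0.00336), and 2 were not called (0.94 and -0.21, adjusted p = 0.264 and 0.794). Egln3 without pnd2 replicate 1 or 2, or gd18 replicate 5 or 6 (adjusted p = 0.0807 to 0.165), Pkm without pnd2 replicate 1, or gd18 replicate 4 or 6 (adjusted p = 0.0605 to 0.136), Pfkp without pnd2 replicate 1, 2 or 3, or gd18 replicate 5 or 6 (adjusted p = 0.0591 to 0.146), Pfkfb4 without pnd2 replicate 1 or 2, or gd18 replicate 4, 5 or 6 (adjusted p = 0.0772 to 0.119) and Pgam1 without pnd2 replicate 1 or 3, or gd18 replicate 4, 5 or 6 (adjusted p = 0.0558 to 0.121). The 4 further probe sets of Aldoa gave differences from -0.40 to 0.04, and its call was lost when the probe sets were averaged.

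**Figure D4:**
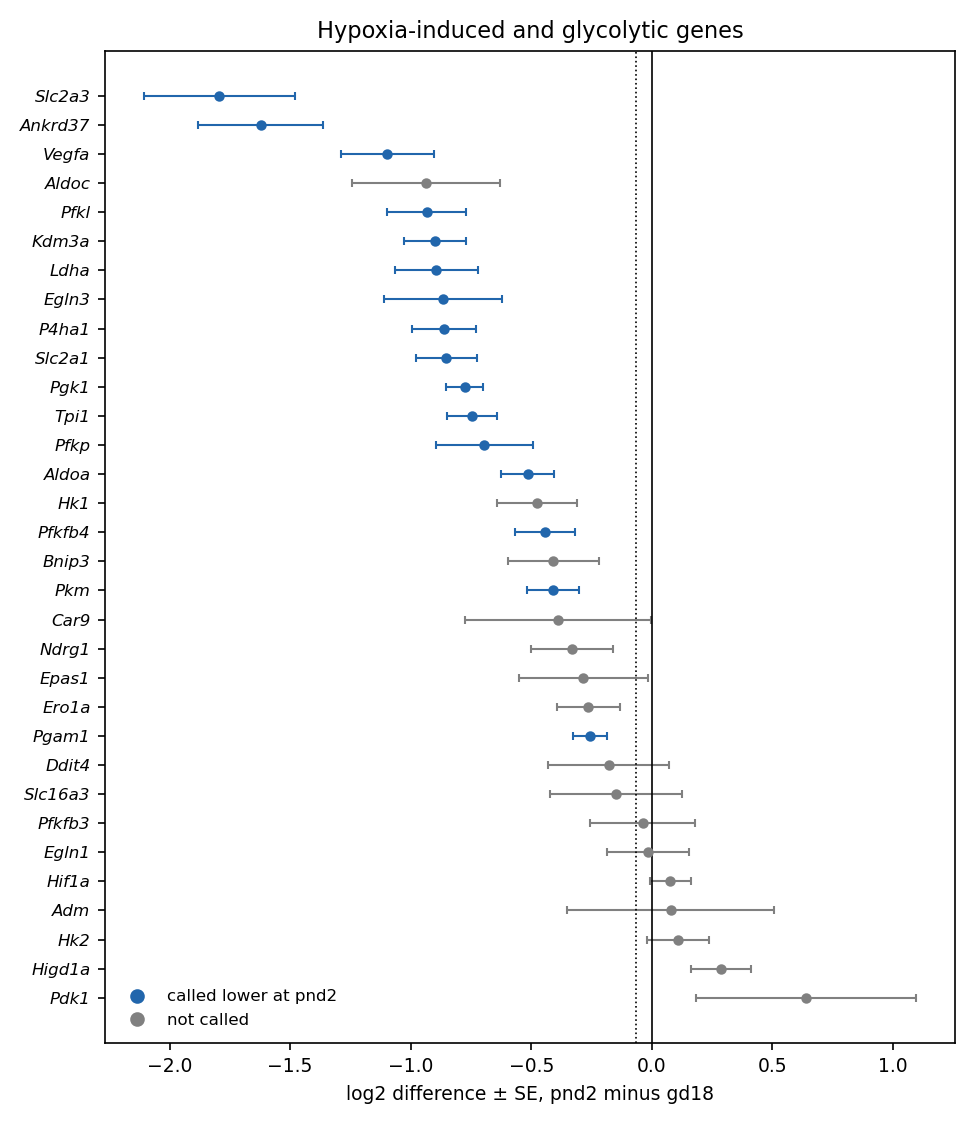
Log2 difference between pnd2 and gd18 ± SE from the fit (horizontal axis) for the 32 tested genes of hypoxia and glycolysis (rows), with called genes in blue, others in grey and the median of all genes dotted. The 16 called genes lie left of 0, from Slc2a3 (-1.79) to Pgam1 (-0.26).

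From gd16 to gd18 the log2 difference was 0.42 for Pgk1, 0.41 for Tpi1, 0.62 for Ldha and 0.66 for P4ha1, all above 0, against -0.30 for Kdm3a and -0.13 for Vegfa. That step shares the gd18 arrays with the comparison of pnd2. The pnd2 mean of Ldha (4299.6) was close to the gd14 mean (4367), while that of Pgk1 (3443) was below every earlier stage mean. Of 41 respiratory chain genes, 0 were called by limma, with a median of 0.06 (0.03 without gd18 replicate 6 and 0.08 without pnd2 replicate 1 at the extremes) (11 had an unadjusted p below 0.05). All of these were higher at pnd2, and 4 genes of the list rose when arrays were centred on the median and 6 with the 12 arrays of single animals. Of 33 fatty acid genes, 1 fell, Plin2 of lipid droplets (-0.38 ± 0.11, adjusted p = 0.0362), not called without any 1 of the 6 arrays (adjusted p = 0.0643 to 0.121). Hmox1, which breaks down heme, rose, with 400.4, 755 and 589 at gd18 and 1049, 1284 and 1107 at pnd2 (0.99 ± 0.22, adjusted p = 0.011), though it was not called without gd18 replicate 4 (adjusted p = 0.0516). So did Pink1, a sensor of damaged mitochondria chosen after its values were seen, with 1057, 2083 and 1031 at gd18 and 2893, 2158 and 2833 at pnd2 (0.97 ± 0.19, adjusted p = 0.00511).

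The promoters of Pgk1, Ankrd37 and Ldha are shown because each gene fell and each window holds the core of the HIF response element. Capitals mark ACGTG on either strand (CACGT when read on the other), so that CACGTG is a match on both. Windows are RefSeq, GRCm38.p6, 5′ to 3′ on the gene's strand: Pgk1 at chrX:106186850-106187149 (plus), Ankrd37 at chr8:45999801-46000100 (minus) and Ldha, the first of 2 windows, at chr7:46845554-46845853 (plus).
Pgk1: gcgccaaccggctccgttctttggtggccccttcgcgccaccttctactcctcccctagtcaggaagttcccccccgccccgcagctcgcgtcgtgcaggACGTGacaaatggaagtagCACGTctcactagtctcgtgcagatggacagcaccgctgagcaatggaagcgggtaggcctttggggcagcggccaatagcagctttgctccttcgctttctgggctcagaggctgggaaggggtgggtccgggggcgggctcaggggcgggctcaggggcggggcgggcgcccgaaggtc
Ankrd37: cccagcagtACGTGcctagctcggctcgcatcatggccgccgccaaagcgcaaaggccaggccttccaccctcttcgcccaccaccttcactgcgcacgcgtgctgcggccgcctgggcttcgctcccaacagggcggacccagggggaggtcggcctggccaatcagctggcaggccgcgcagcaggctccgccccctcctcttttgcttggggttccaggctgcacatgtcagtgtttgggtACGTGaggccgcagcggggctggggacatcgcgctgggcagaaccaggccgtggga
Ldha: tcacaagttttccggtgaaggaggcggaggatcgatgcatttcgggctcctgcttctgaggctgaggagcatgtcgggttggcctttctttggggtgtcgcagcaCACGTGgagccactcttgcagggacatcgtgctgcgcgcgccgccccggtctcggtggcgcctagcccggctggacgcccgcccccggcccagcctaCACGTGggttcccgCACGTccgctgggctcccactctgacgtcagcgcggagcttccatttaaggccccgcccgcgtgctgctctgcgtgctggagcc
Pgk1 and Ankrd37 hold 2 marked stretches each and Ldha holds 3. ACGTG was found in the window of 10 of 15 fallen list genes that have one, of 12 of 14 list genes that were not called, and of 28.4% of all 11518 genes. With GCGTG allowed too, the counts were 14 of 15, 14 of 14 and 65.2%. ACGTG was no more frequent in the fallen members than in those not called.

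Vessel genes were the next list by share of falls. Of 27 endothelial genes, 1 rose (3.7%) and 8 fell (29.6%), against 2.54% and 5.26% of all genes. The median was -0.59, and the summed intensity was 19613 to 20950 at gd18 and 14236 to 16106 at pnd2. Aplnr, the apelin receptor of growing vessels, read 3455, 3589.6 and 3482 at gd18 and 1379, 1242 and 1191 at pnd2 (-1.45 ± 0.20, adjusted p = 0.000457). Flt1, a VEGF receptor, read 264, 226 and 367 at gd18 and 88.6, 101 and 82.1 at pnd2 (-1.43 ± 0.27, adjusted p = 0.00354), and Sox17, an arterial factor, read 426, 504 and 616 at gd18 and 203, 170.0 and 201 at pnd2 (-1.32 ± 0.22, adjusted p = 0.00187). All 3 lay below all fetal arrays at pnd2. Of general endothelial markers, Cdh5, VE-cadherin, overlapped (-0.10 ± 0.37, adjusted p = 0.903) and Pecam1 was not called (-0.63 ± 0.29, adjusted p = 0.19). Kdr, the main VEGF receptor, was not called either (-0.32 ± 0.38, adjusted p = 0.662). Cd34, carried by vessels and stroma, was the rise, with 2013, 1965 and 1693 at gd18 and 3341, 2852 and 2760.2 at pnd2 (0.65 ± 0.14, adjusted p = 0.00991). The falls numbered 3 without pnd2 replicate 3, 4 without gd18 replicate 4 or 6 and 5 without pnd2 replicate 2 or gd18 replicate 5, and Cd34 was not called without gd18 replicate 6 (adjusted p = 0.055). Aplnr, Flt1 and Sox17 kept their calls in each of those fits.

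Some genes of Notch and Wnt signalling fell too. Of 45 Wnt, Notch and FGF genes, 6 fell (13.3%) and 1 rose (Etv4, 2.2%), against 5.26% and 2.54% of all genes. Hey1, a Notch target, read 375, 336 and 348 at gd18 and 148, 181 and 158 at pnd2 (-1.03 ± 0.15, adjusted p = 0.000591), and Hes1, another, read 588, 776 and 841 at gd18 and 404, 428 and 439 at pnd2 (-0.75 ± 0.15, adjusted p = 0.0064). Lef1, a factor of Wnt signalling, read 167, 186 and 267 at gd18 and 76.5, 109 and 68.6 at pnd2 (-1.09 ± 0.19, adjusted p = 0.00241). Each was below all fetal arrays. Hey2, a relative of Hey1 (-1.58 ± 0.36, adjusted p = 0.0132), Notch3, a receptor of mural cells (-0.69 ± 0.17, adjusted p = 0.0175), and Fgfr2, an FGF receptor (-0.58 ± 0.16, adjusted p = 0.0322), made up the rest. Of 22 stromal progenitor genes, 3 fell, among them Meis2, a homeobox factor, with 821, 1047 and 822 at gd18 and 374, 450.2 and 354 at pnd2 (-1.14 ± 0.24, adjusted p = 0.00768), and Gli2, an effector of hedgehog signals (-0.67 ± 0.16, adjusted p = 0.0164). The hedgehog readouts Gli1 (-0.03 ± 0.20, adjusted p = 0.947) and Ptch1 (-0.12 ± 0.13, adjusted p = 0.64) were not called. Hey2 was not called without pnd2 replicate 3 or gd18 replicate 6 (adjusted p = 0.0694 and 0.0681), Notch3 without pnd2 replicate 1 or 3, or gd18 replicate 4 (adjusted p = 0.0524 to 0.0602), Fgfr2 without pnd2 replicate 1 or 2, or gd18 replicate 5 or 6 (adjusted p = 0.0514 to 0.154) and Gli2 without pnd2 replicate 3 or gd18 replicate 6 (adjusted p = 0.0635 and 0.0646).

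Red cell genes fell in part. Of 17 erythroid genes, 5 fell (29.4% against 5.26% of all genes) and 0 rose by limma (0 at an unadjusted p below 0.05). The median was -0.88 (-1.17 without gd18 replicate 6 and -0.32 without gd18 replicate 5 at the extremes). Alas2, the heme enzyme of red cells, read 2020.2, 3266 and 1082 at gd18 and 217, 184 and 160.5 at pnd2 (-3.23 ± 0.36, adjusted p = 5.95e-05). Slc4a1, the anion exchanger of the red cell membrane, read 190.4, 1839 and 117 at gd18 and 29.3, 28.4 and 40.1 at pnd2 (-2.80 ± 0.61, adjusted p = 0.0106), and Car2, carbonic anhydrase, read 406, 2419 and 212 at gd18 and 121, 80.9 and 91.0 at pnd2 (-2.39 ± 0.53, adjusted p = 0.011). gd18 replicate 5 stood highest for all 3, far above the other two for Slc4a1 and Car2, and the list summed to 7652, 16079 and 5801 on replicates 4, 5 and 6. The calls of these 3 genes held without that array. The beta globin Hbb-b2 read 909, 1183 and 603 at gd18 and 131, 75.6 and 55.7 at pnd2 (-3.07 ± 0.39, adjusted p = 0.0002), but another probe set of it was not called (-0.18, adjusted p = 0.787), and globin copies share sequence. Klf1, an erythroid regulator, fell (-0.93 ± 0.27, adjusted p = 0.042), and was not called without pnd2 replicate 1, 2 or 3, or gd18 replicate 5 (adjusted p = 0.0986 to 0.2). Slc25a37, an iron carrier of red cell mitochondria chosen after its values were seen, fell as well (1092, 2304 and 699 at gd18 and 262, 267 and 218 at pnd2; -2.19 ± 0.31, adjusted p = 0.000457).

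Few macrophage and interferon-induced genes were called, with 3.6% and 4.5% lower against 5.26% of all genes. Of 28 macrophage genes 1 fell, Cd14, a receptor for bacterial products (-1.20 ± 0.32, adjusted p = 0.0269), which was not called without pnd2 replicate 2 or 3, or gd18 replicate 4 or 6 (adjusted p = 0.0577 to 0.141). Csf1r, the receptor that sustains macrophages, was not called (-0.41 ± 0.30, adjusted p = 0.452). Their sum was highest on gd18 replicate 6 (7116, 8331 and 13645 on replicates 4, 5 and 6). Of 14 neutrophil and mast cell genes 2 fell, Prtn3, proteinase 3 (-1.42 ± 0.31, adjusted p = 0.00965), and Ngp, a granule protein (-1.42 ± 0.35, adjusted p = 0.0205); Ngp was not called without pnd2 replicate 2 or 3, or gd18 replicate 5 or 6 (adjusted p = 0.0522 to 0.0893). Of 22 interferon-induced genes 1 fell, Rsad2, an antiviral enzyme, with 317, 1671 and 301 at gd18 and 64.5, 105 and 109.9 at pnd2 (-2.33 ± 0.49, adjusted p = 0.00882), high on gd18 replicate 5. Ccl17, a chemokine chosen after its values were seen, read 3638, 3252 and 3274 at gd18 and 888, 963 and 343 at pnd2; it had risen from 981 at gd16, and dropped at pnd2 (-2.30 ± 0.44, adjusted p = 0.00424).

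Some fetal growth genes fell. Of 25 tested, 4 fell (16.0% against 5.26% of all genes) and 0 rose by limma (2 at an unadjusted p below 0.05), with a median of -0.21. Hmga2, a chromatin protein of fetal cells, read 376, 344 and 396 at gd18 and 93.3, 115 and 152 at pnd2 (-1.49 ± 0.21, adjusted p = 0.000451), the tail of a decline from 14232 at gd11 and 4216 at gd14. Igf2bp3, which binds fetal growth mRNAs, read 1708, 1643 and 1437 at gd18 and 1139, 1161 and 1161 at pnd2 (-0.46 ± 0.08, adjusted p = 0.00168), although of its 5 other probe sets 1 was called (-0.46, adjusted p = 0.0314). Igf2, the fetal growth factor, was not called (-0.30 ± 0.20, adjusted p = 0.398). The other falls were Igf2r, the receptor that clears Igf2 (-0.81 ± 0.23, adjusted p = 0.0384), not called without any 1 of the 6 arrays (adjusted p = 0.0736 to 0.119), and Arid3a, a DNA-binding protein (-0.52 ± 0.16, adjusted p = 0.0454), not called without any 1 of the 6 arrays (adjusted p = 0.0508 to 0.149). Of 31 imprinted genes, 6 fell (19.4%) and 1 rose (3.2%), against 5.26% and 2.54% of all genes. The falls numbered 2 without gd18 replicate 5 or 6 and 3 without pnd2 replicate 1, 2 or 3. The summed intensity was 166450 to 189207 at gd18 and 138243 to 155036 at pnd2. Mest, a growth gene expressed from the paternal copy, read 11751, 11627 and 12038 at gd18 and 7446, 6657 and 7124 at pnd2 (-0.74 ± 0.09, adjusted p = 0.000168), and Grb10, a brake on insulin signals, read 10365, 9996 and 10906 at gd18 and 6050.4, 6504 and 5889 at pnd2 (-0.76 ± 0.10, adjusted p = 0.000277). Both lay below all fetal arrays at pnd2. Of 2 other probe sets of Grb10, neither was called (adjusted p = 0.216 and 0.396). Crabp2, a carrier of retinoic acid, read 693, 537 and 425 at gd18 and 67.5, 140.0 and 102 at pnd2 (-2.21 ± 0.41, adjusted p = 0.00326).

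A few genes of DNA replication rose slightly. Of 42 cell division genes, 4 rose (9.5%) and 1 fell (2.4%), against 2.54% and 5.26% of all genes. The median was 0.17 (0.10 without pnd2 replicate 3 and 0.22 without gd18 replicate 4 at the extremes), with 11 members below 0. The rises were Mcm2, Mcm3 and Mcm5, of the helicase that opens DNA for copying, and Mad2l1, of the spindle checkpoint. Mcm5 read 4037, 4223 and 4126 at gd18 and 5265, 5369 and 5534 at pnd2 (0.38 ± 0.11, adjusted p = 0.0443). Mcm5 was not called without any 1 of the 6 arrays (adjusted p = 0.0847 to 0.124). Another probe set of Mcm5 rose (0.45, adjusted p = 0.0176), and a dim one was not called (0.69, adjusted p = 0.239). For Mcm3, further probe sets rose by 0.49 and 0.51 (adjusted p = 0.0042 and 0.00547). Others of Mcm3 were not called (0.37 and -0.23, adjusted p = 0.0638 and 0.719), nor was a further one of Mcm2 (0.41, adjusted p = 0.109). The replication clamp Pcna (0.03 ± 0.08, adjusted p = 0.871) and the proliferation marker Mki67 (-0.18 ± 0.11, adjusted p = 0.334) were not called. The rises numbered 0 without pnd2 replicate 3, or gd18 replicate 4, 5 or 6 and 1 without pnd2 replicate 2. 3 related genes, chosen after their values were seen, rose as well: Tipin, of the replication fork, read 3184, 3248 and 2753 at gd18 and 4852, 5991 and 4764 at pnd2 (0.76 ± 0.13, adjusted p = 0.00155), with Chaf1b (0.60 ± 0.12, adjusted p = 0.00552) and Nasp (0.44 ± 0.09, adjusted p = 0.00477), both histone chaperones. Nasp was not called with the mean of its probe sets. Of 22 cycle inhibitors and D cyclins, 1 rose, Trp53inp1, a p53 target (0.66 ± 0.14, adjusted p = 0.00931), and Cdkn1b, p27, was not called (-0.17 ± 0.17, adjusted p = 0.598). A dimmer probe set of Trp53inp1 was not called (0.03, adjusted p = 0.962), nor was the mean of its probe sets.

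Several of the largest changes lay outside these groups. Irs4, an adaptor of insulin receptors, read 633, 637 and 931 at gd18 and 46.8, 50 and 38.8 at pnd2 (-3.46 ± 0.39, adjusted p = 5.95e-05). Foxa1, a forkhead factor, read 404, 396 and 693 at gd18 and 12.3, 19.6 and 33.0 at pnd2 (-3.54 ± 0.55, adjusted p = 0.000841), and Otx2, a homeobox factor, read 214, 256 and 123 at gd18 and 10, 4.06 and 3.63 at pnd2 (-2.91 ± 0.56, adjusted p = 0.00425). All 3 were near background at pnd2 and had their highest stage mean at gd18. Dscaml1, an adhesion molecule, read 245, 314 and 923 at gd18 and 16.3, 6.87 and 11.8 at pnd2 (-3.70 ± 0.34, adjusted p = 8.22e-06) and had been high at gd16, like Dnmt3l. Fam183b (-3.13 ± 0.55, adjusted p = 0.00248), Fndc3c1 (-2.85 ± 0.36, adjusted p = 0.000176), Clca1 (-2.71 ± 0.31, adjusted p = 5.95e-05), Shox2, a homeobox factor (-3.18 ± 0.78, adjusted p = 0.0188), Zfp979 (-3.13 ± 0.76, adjusted p = 0.0175) and St8sia3 (-2.69 ± 0.66, adjusted p = 0.0177) complete the 15 largest falls. Clca1 fell by the probe set that passed the filter alone, since without the filter another probe set stood for it and gave -0.14 (adjusted p = 0.875). Shox2 was not called without pnd2 replicate 1 or 3, or gd18 replicate 4 or 6 (adjusted p = 0.0577 to 0.0635), Zfp979 without pnd2 replicate 1 or 3, or gd18 replicate 5 or 6 (adjusted p = 0.0528 to 0.0782) and St8sia3 without pnd2 replicate 1 or 2, or gd18 replicate 4 or 6 (adjusted p = 0.0551 to 0.0646). Among the largest rises, Glb1l3 read 256, 136 and 165 at gd18 and 668, 1093 and 1249 at pnd2 (2.30 ± 0.33, adjusted p = 0.000468) and Elovl2, which lengthens polyunsaturated fatty acids, read 1114, 816 and 414 at gd18 and 2637, 2264 and 2465 at pnd2 (1.73 ± 0.30, adjusted p = 0.00243). Both had already climbed between gd16 and gd18. Dmrta1, a relative of Dmrt1 (1.82 ± 0.36, adjusted p = 0.00519), Qpct, which forms pyroglutamate (1.72 ± 0.33, adjusted p = 0.00452), Wfdc6a (1.70 ± 0.35, adjusted p = 0.00712), Acaa1b, a peroxisomal thiolase (1.97 ± 0.44, adjusted p = 0.0115), and Tnnt2, cardiac troponin T (1.63 ± 0.38, adjusted p = 0.0132), also rose. H3f3b, a variant histone, read 206, 168 and 204 at gd18 and 1689, 426 and 461 at pnd2, and pnd2 replicate 1 stood far above the rest. Its rise (1.75 ± 0.40, adjusted p = 0.0129) was not called without pnd2 replicate 1 (adjusted p = 0.0565). Acaa1b was not called without gd18 replicate 6 (adjusted p = 0.0694), nor Tnnt2 without pnd2 replicate 2 or 3, or gd18 replicate 6 (adjusted p = 0.0527 to 0.0748).

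Markers of tissues that a dissection could carry along moved with the stage in places. Of 28 striated muscle genes 5 fell (17.9%) and 1 rose (3.6%), against 5.26% and 2.54% of all genes. Their sum was 6633 to 8981 at gd18 and 4649 to 5574 at pnd2. The falls numbered 2 without pnd2 replicate 1 or 3, or gd18 replicate 6 and 3 without pnd2 replicate 2. Myh7, a slow myosin chain, read 343, 389.7 and 424 at gd18 and 74.1, 23.3 and 44.7 at pnd2 (-2.61 ± 0.40, adjusted p = 0.000789), while the defining markers Ckm and Myog were at 119 ± 31.3 at gd18 and 51.6 ± 29.5 at pnd2 and at 49.5 ± 42.0 at gd18 and 14.5 ± 8.48 at pnd2. A dimmer probe set of Ckm, muscle creatine kinase, fell (-1.37, adjusted p = 0.0341). Of 14 duct genes 3 fell, the keratins Krt7 (-1.11 ± 0.25, adjusted p = 0.0124), Krt18 and Krt19 (-1.05 ± 0.29, adjusted p = 0.0312; not called without pnd2 replicate 1 or 2, or gd18 replicate 4, 5 or 6 (adjusted p = 0.0638 to 0.119)). These falls numbered 1 without pnd2 replicate 1 or 2, or gd18 replicate 4, 5 or 6. Ret, also a duct gene, was the rise, so 21.4% of the duct genes fell and 7.1% rose. The duct genes summed to 7039 to 7442 at gd18 and 4959 to 5669 at pnd2, with the duct factor Pax8 at 149 ± 53.4 at gd18 and 80.8 ± 6.63 at pnd2. Of 15 adrenal, 8 fat and 10 liver genes, 0 were called by limma, with 2, 1 and 1 at an unadjusted p below 0.05. The adrenal genes summed to 2146 to 2811 at gd18 and 1322 to 1716 at pnd2, without overlap, with a median of -0.43. Of 17 neural and glial genes 1 rose, S100b, a calcium-binding protein of glia (1.24 ± 0.37, adjusted p = 0.0445), not called without any 1 of the 6 arrays (adjusted p = 0.0715 to 0.126). The neural genes summed to 6231 to 7064 at gd18 and 5374 to 5866 at pnd2, also without overlap, with a median of -0.58. Near background at both stages were 5 of the adrenal and 3 of the neural genes. Dim genes in general, with a higher stage mean of 71.6 to 200, had a median of -0.31. Alb, albumin, was at 42.4 ± 27.0 at gd18 and 43.1 ± 50.4 at pnd2 and the fat marker Adipoq at 26.3 ± 11.0 at gd18 and 46.5 ± 50.5 at pnd2. Their part in the results was not tested. An array of 8 pooled whole newborns at postnatal day 0.5, with no replicate, read 26145 for Ckm, 34607 for Alb and 4865 for Myh7, and 14.7 for Dnmt3l.

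Some genes of the clock, of glucocorticoids and of handling were called. Of clock genes 9.1% fell and 4.5% rose, and of glucocorticoid-induced genes 8.3% fell and 0.0% rose. Of immediate early genes 4.2% fell and 8.3% rose. Over all genes, 5.26% fell and 2.54% rose. Of 22 clock genes 1 rose, Rora (1.0 ± 0.29, adjusted p = 0.038), and 2 fell, Cry1 (1361, 1521 and 2557 at gd18 and 786, 1075 and 698 at pnd2; -1.04 ± 0.22, adjusted p = 0.00752) and Ciart (-0.83 ± 0.25, adjusted p = 0.0486); the core genes Per1 (-0.09 ± 0.24, adjusted p = 0.878) and Arntl (-0.31 ± 0.20, adjusted p = 0.379) were not called. Rora was not called without any 1 of the 6 arrays (adjusted p = 0.052 to 0.157) and Ciart without pnd2 replicate 1, 2 or 3, or gd18 replicate 5 or 6 (adjusted p = 0.065 to 0.226). Of 24 glucocorticoid-induced genes 2 fell, Hif3a, a HIF antagonist, with 1335, 1324 and 1233 at gd18 and 572, 352 and 683 at pnd2 (-1.29 ± 0.23, adjusted p = 0.00283), and Cebpb (-0.99 ± 0.22, adjusted p = 0.0115), while Fkbp5, the standard readout, overlapped (-0.00 ± 0.13, adjusted p = 0.99). Of 24 immediate early genes, a readout of handling, 2 rose (Egr2 and Ccn2, 0.85 ± 0.25, adjusted p = 0.0465) and 1 fell (Klf2, -0.86 ± 0.25, adjusted p = 0.0398). Ccn2 was not called without any 1 of the 6 arrays (adjusted p = 0.0718 to 0.174), nor Klf2 without pnd2 replicate 2 or 3, or gd18 replicate 4, 5 or 6 (adjusted p = 0.0504 to 0.202), and Fos (0.31 ± 0.23, adjusted p = 0.444) and Jun (0.20 ± 0.20, adjusted p = 0.593) were not called. pnd2 replicate 1 stood high in this list, at 40081 against 31063 and 27344 on the other pnd2 arrays. Cebpb was not called without pnd2 replicate 2 or gd18 replicate 6 (adjusted p = 0.0527 and 0.0518).

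**Figure D5:**
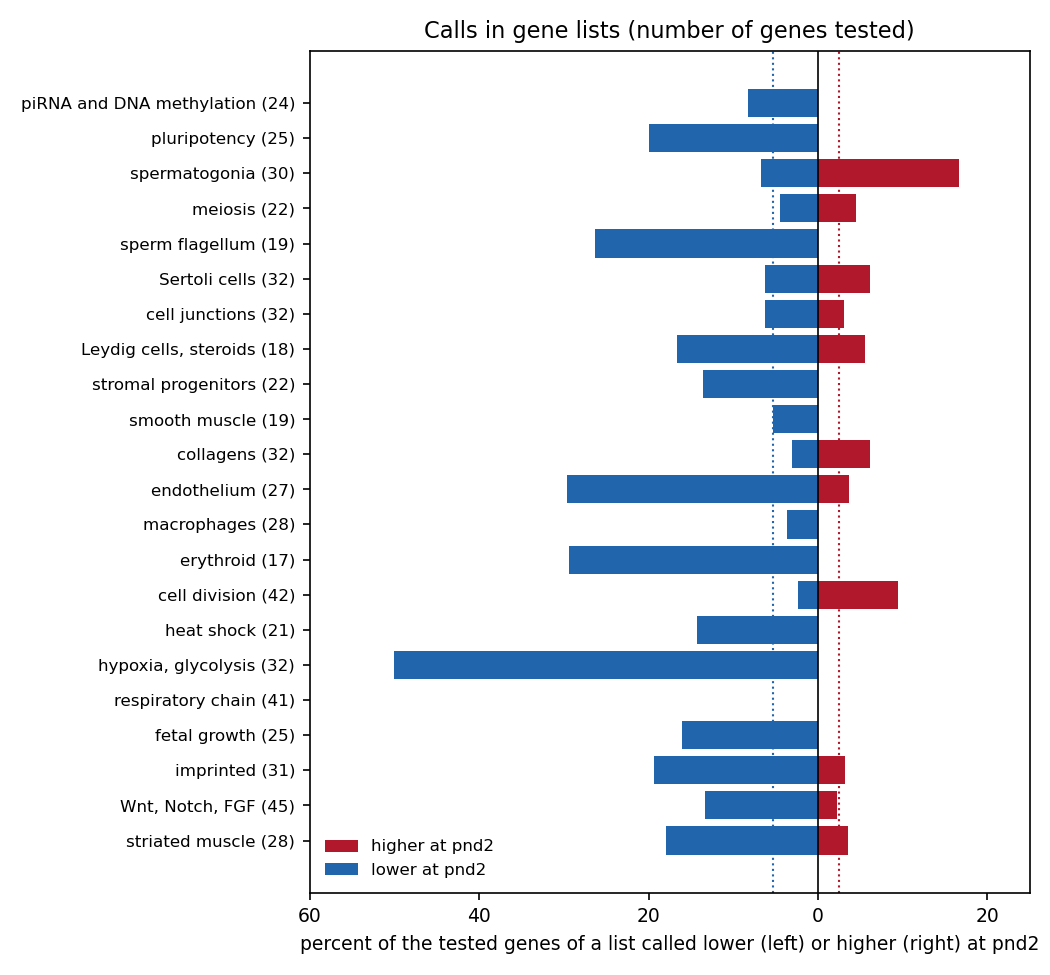
Percent of the tested genes of 22 gene lists (rows, number tested in brackets) called lower (blue, left) or higher (red, right) at pnd2, with dotted lines at the share of all genes called lower (5.26%) and higher (2.54%). Hypoxia and glycolysis genes reach 50% lower, endothelial and erythroid genes 29.6% and 29.4%, and spermatogonial genes 16.7% higher.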

How the data were processed

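RNA of whole testes was labelled with biotin and hybridised to single-channel arrays, per the labels' protocols. The authors deposited 1 intensity per probe set and array, and the submitters' processing notes name GCOS as the software, for which no version or algorithm was found in the sources used here. The deposited intensities share a trimmed mean of 499.8 to 499.9, so each array had been scaled to a common level. Gene names came from the platform annotation: of 45101 probe sets, 34945 have 1 gene, 932 several, 9160 none and 64 are controls, and 34741 matched a current gene through the Entrez identifier.

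Intensities were turned into log2(intensity + 22.4), an offset set at the 20th percentile over the testis arrays, which shrinks differences of dim genes. Probe sets were kept if above the 40th percentile on at least 3 of 20 arrays, and each gene was represented by the brightest of those kept. Stage means over all 20 testis arrays were fitted with limma 3.58.1 in R 4.3.3 (lmFit, eBayes with an intensity trend), and pnd2 was compared with gd18 with Benjamini-Hochberg adjustment at 0.05. The fit was tested on simulated data. Named genes were the 15 largest rises and 15 largest falls without overlap, cell type markers, up to 6 called members of each list with its defining genes, and genes that came on or went off; others are marked as chosen after their values were seen. The members and the gene lists were chosen with earlier results of these data known. Alternatives changed the offset, filter, scaling, arrays in the fit, probe set rule and trend, and left out each array in turn. Pooling and stage coincide at gd11 and gd12. The whole newborn array entered no test.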

Additional observations from a re-analysis of the deposited data

How the results depend on the processing

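All 16 gene-level alternatives kept 218 of the 1118 calls (19.5%), 55 higher and 163 lower. With the mean of a gene's probe sets, 7 of all 1118 calls changed sign, none of them a named gene; in the other alternatives none did. Leaving out 1 array gave 437 to 785 calls, 146 to 234 higher, 291 to 551 lower, and 165 to 345 of at least 2-fold. With the 12 arrays of single animals, 2333 genes were called, 823 higher and 1510 lower, 561 of at least 2-fold. With the 6 arrays of the 2 stages alone, 554 were higher. The count of 2-fold calls was 219 with the offset at the 40th percentile and 227 with the filter at the 60th. Other counts stayed within 1.5 times. The cause was not tested. No paired analysis was possible because the replicate numbers run on over the series and pair no samples. With eBayes without trend, Aard, Ccn2, Col4a4, Ctnnb1, Fdx1, Gfra1, Gramd1b, Hspa5, Igf2r, Klf2, Krt18, Mad2l1, Mcm2, Mcm3, Mcm5, Pgam1, Pkm, Plin2, Pou3f1 and Ptgds were not called (adjusted p = 0.0502 to 0.111). With the mean of a gene's probe sets, Aldoa, C920006O11Rik, Ctnnb1, Fbln1, Fgfr2, Grb10, Hells, Hspa5, Igf2r, Itga9, Kdm6b, Lama4, Mcm3, Nasp, Notch3, Pou3f1, Rora and Trp53inp1 were not called (adjusted p = 0.0508 to 0.712). With no filter, Arid3a, Cbx8, Ccn2, Ciart, Clca1, Col4a4, Ctnnb1, Egln3, Gfra1, Gramd1b, Klf1, Mcm2, Mcm3, Mcm5, Pfkfb4, Pfkp, Pou3f1, Ptgds, Rora and S100b were not called (adjusted p = 0.0506 to 0.875). With quantile normalization, Arid3a, Cbx8, Ccn2, Cd14, Ciart, Col4a4, Ctnnb1, Egln3, Klf1, Lrat, Mcm2, Mcm3, Mcm5, Pfkfb4, Pfkp and Spo11 were not called (adjusted p = 0.0515 to 0.131). With arrays centred on the median, Arid3a, Ciart, Ctnnb1, Gramd1b, Hspa5, Igf2r, Klf1, Klf2, Pfkfb4, Pfkp, Pgam1, Pkm, Plin2 and Ptgds were not called (adjusted p = 0.0517 to 0.145). With only the 6 arrays of the 2 stages, Arid3a, Clec3b, Ctnnb1, Gramd1b, Klf1, Klf2, Mcm2, Mcm3, Pfkfb4, Pgam1, Spo11 and Tekt1 were not called (adjusted p = 0.052 to 0.0953). With the offset at the 10th percentile, Ccn2, Ciart, Clec3b, Col4a3, Col4a4, Egr2, Fshr, Lrat, Ptgds, S100b and Spo11 were not called (adjusted p = 0.0512 to 0.136). With the offset at the 40th, Cldn6, Dppa3 and Pou3f1 were not called (adjusted p = 0.0625 to 0.166). With the 12 arrays of single animals, Klf1 was not called (adjusted p = 0.0552). With the filter at the 60th percentile, S100b was not called (adjusted p = 0.0612). Each of those genes kept its direction. Dim genes lie near background, where the offset shrinks differences. Dim probe sets were also lower on pnd2 arrays in general, and the part of this in the falls of dim genes was not tested. The p-values cover only the spread within stages over the 20 testis arrays, the pools of gd11 and gd12 included.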

Other observations

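Gene groups not described so far gave mixed counts, to be read against 5.26% lower and 2.54% higher over all genes. Of 19 smooth muscle genes, 1 fell, Itga9, an integrin (-0.95 ± 0.26, adjusted p = 0.0313), not called without pnd2 replicate 2 or 3, or gd18 replicate 4, 5 or 6 (adjusted p = 0.0679 to 0.111), and the myoid markers Acta2 (0.26 ± 0.57, adjusted p = 0.842) and Myh11 (0.50 ± 0.37, adjusted p = 0.442) were not called. Of 34 chromatin genes, 4 fell and 1 rose. Beside Kdm1b and Ehmt2 the falls were Kdm6b, a histone demethylase (-0.62 ± 0.16, adjusted p = 0.0241), and Cbx8, a Polycomb protein (-0.63 ± 0.17, adjusted p = 0.0322); the falls numbered 2 without pnd2 replicate 2 or 3, or gd18 replicate 6. The other 2 probe sets of Kdm6b were not called (0.70 and -0.32), and their mean gave -0.08 (adjusted p = 0.712). Kdm6b was not called without pnd2 replicate 2 or 3, or gd18 replicate 4 or 6 (adjusted p = 0.061 to 0.116), nor Cbx8 without pnd2 replicate 1, 2 or 3, or gd18 replicate 5 or 6 (adjusted p = 0.0656 to 0.126). Among 19 genes of retinoic acid, Crabp2, Rarg and Lrat, which stores retinol as esters (-1.40 ± 0.37, adjusted p = 0.0251), fell, and the falls numbered 1 without pnd2 replicate 2, or gd18 replicate 4 or 6. Lrat was not called without pnd2 replicate 2 or 3, or gd18 replicate 4, 5 or 6 (adjusted p = 0.0605 to 0.0949). Of 37 other matrix genes 2 fell, Fbln1, a fibulin (-0.79 ± 0.16, adjusted p = 0.00544), and Lama4, a laminin of vessel walls (-0.63 ± 0.14, adjusted p = 0.0103). Neither was called with the mean of its probe sets (adjusted p = 0.0865 and 0.0585). Lama4 was not called without gd18 replicate 6 (adjusted p = 0.05). Of 37 antioxidant genes, Hmox1 rose and Gpx3, a secreted glutathione peroxidase, fell, from 1963 to 1131 (-0.78 ± 0.14, adjusted p = 0.00312).

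Several gene families were counted by their symbols after the values were seen. Of 32 axoneme genes (Cfap, Dnah, Rsph, Tekt), 6 fell and 29 had a difference below 0, with a median of -0.72. Of 17 lysine demethylases (Kdm), 4 fell (Kdm3a, Kdm6b, Kdm2b and Kdm1b). Of 39 proteasome subunits, 4 rose (Psma6, Psmc4, Psmd7 and Psmd9), with a median of 0.15. Of the 6 genes Mcm2 to Mcm7, 3 rose (Mcm5, Mcm2 and Mcm3) and 0 had a difference below 0, with a median of 0.33. Over all 754 falls, the highest stage mean lay at gd16 for 238 genes, at gd18 for 192, at gd11 for 176, at gd14 for 92 and at gd12 for 56, and pnd2 was the lowest stage for 525. Over the 364 rises, pnd2 was the highest stage for 224. The calls themselves rest on the pnd2 and gd18 means, which favours these stages as the lowest or highest. Shares over all genes are not given here, so these counts only describe the called genes.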
